A study of Mus musculus with 44 samples.

Results

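Neurexins, neuroligins and LRRTMs were followed through every RNA-seq, ribosome-profiling and poly(A)-tail data set of the series. The genes were chosen by symbol, and 9 of the 17006 genes with a symbol were members, comprising 2 neurexins (Nrxn2 and Nrxn3), 3 neuroligins (Nlgn1, Nlgn2 and Nlgn3) and 4 LRRTMs (Lrrtm1, Lrrtm2, Lrrtm3 and Lrrtm4). The paper names C57BL6J as the strain of the study. The tissues were hippocampi of E16 embryos (sex not determined), the hippocampus of an adult male and the cortex of an adult male. Primary cultures came from the cortices of newborn pups of both sexes, pooled over litters, with AraC to kill dividing cells, and were harvested after 10 or 14 days in vitro (DIV10 and DIV14). The DIV10 cultures received KCl for 0, 10 or 30 min. The DIV14 cultures were unstimulated, received BDNF or glutamate with glycine (glu/gly) for 30 min, or were transduced at DIV5 with a lentivirus in which a synapsin promoter, which is active in neurons, drove GFP alone, GFP with miR-1 or GFP with miR-155. Visual cortex came from 8 mice aged 6 to 7 weeks and kept in the dark for 1 week, of which 4 were taken in the dark (0 h) and 4 after 1 h of light. The tissues and cultures had 1 library per assay, so their comparisons carry no p-value, and only the visual cortex had replicates.

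Neurexins are presynaptic membrane proteins. Their extracellular domains reach across the synaptic cleft and bind postsynaptic partners, among them the neuroligins, which resemble acetylcholinesterase, and the LRRTMs, whose leucine-rich repeats form the binding surface. Within the neuroligins, Nlgn1 is known from excitatory synapses, Nlgn2 from inhibitory synapses, where it acts with gephyrin, and Nlgn3 from both. The LRRTMs are known from excitatory synapses and help to hold AMPA receptors there. Neurexins are also known for their long genes and many splice forms. The counts used here rest on a single annotated transcript per gene and do not tell these forms apart.

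In the RefSeq annotation of GRCm38.p6, the 3′ UTR of Nlgn1 is 11830 nt long, longer than 99.9% of those annotated, whereas that of Lrrtm1 has 387 nt. These UTRs matter to the miRNA cultures, so sites of miR-155 were searched in them. The mature miRNA and the Nlgn1 sites of 8 nt are shown because they are the strongest kind of match found in any member. Capitals mark the seed of the miRNA (bases 2 to 8). The miRNA is encoded at chr16:84714143-84714165 on the plus strand. In the UTR, capitals mark the match to the seed and the A that follows it. The UTR sequences shown were read from the minus strand at chr3:25431342-25431369 and chr3:25422324-25422351. Each UTR position given is that of the G of GCATTA, the base after the first capital.
mmu-miR-155-5p: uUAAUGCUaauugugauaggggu
Nlgn1 site at UTR position 2280: atattgagctAGCATTAAaaaaaatcta
Nlgn1 site at UTR position 11298: ccaagacaacAGCATTAAagtaataaac
Matches to AGCATTAA (8mer), AGCATTA (7mer-m8), GCATTAA (7mer-A1) and GCATTA (6mer) were searched on the transcript strand only, each place counted once as its longest form. Nlgn1 held 2 8mers, 3 7mer-m8 sites, 2 7mer-A1 sites and 1 6mer, Lrrtm2 held 1 7mer-m8 site, and the other 7 members held none. Of all 16885 annotated 3′ UTRs, of any length, 2.85% held an 8mer and 11.8% an 8mer or a 7mer.

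The 9 genes also differ widely in structure. In the same annotation, the transcript counted for Nrxn3 (chr12:88794504-90334935, plus strand, 20 exons) spans 1540 kb and that for Nrxn2 (chr19:6418756-6533217, plus strand, 23 exons) 114 kb. Nlgn1 (chr3:25421808-26331909, minus strand) spans 910 kb, against 11.7 kb for Nlgn2 (chr11:69823123-69834849, minus strand) and 22.2 kb for Nlgn3 (chrX:101299179-101321350, plus strand). The LRRTMs have few exons. Lrrtm1 (chr6:77242477-77245517, plus strand) and Lrrtm4 (chr6:80018877-80024932, plus strand) have 2 each, as does Lrrtm2 (chr18:35209003-35215024, minus strand), and Lrrtm3 (chr10:63928497-64090255, minus strand) has 3. Lrrtm1, Lrrtm2 and Lrrtm3 each lie wholly within an α-catenin gene on the opposite strand (Ctnna2, Ctnna1 and Ctnna3), with 0 exon bases in common with it. Exons of Nrxn2 share 191 and 7 bases with opposite-strand long noncoding RNAs, and whether reads were counted by strand is not given in the sources used here. G or C stands at the third position in 78.0% of the codons of Lrrtm1 and 77.2% of those of Nrxn2, but in 43.4% of those of Nlgn1.

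Reads on genes ran from 448022 to 7689624 in the 12 RNA-seq libraries and from 2812215 to 23212489 in the 10 libraries of ribosome-protected fragments (RPFs) with settled labels. Tags ran from 389654 to 1057812 in TAIL-seq and from 1233538 to 4812273 in the visual cortex. Intervals in brackets are 95% intervals from the counts of the libraries compared and cover counting error only. Levels are given as RPKM, which divides reads by the counted length and by the reads on genes, so that genes can be compared, and a difference between 2 libraries was called when it reached 2-fold with at least 20 reads over both. RNA of both hippocampi was poly(A)-selected, whereas that of adult cortex and 6 cultures was depleted of ribosomal RNA. This step therefore cannot be told apart from the tissue when cortex is set against hippocampus. All 7 neuronal markers were detected in every tissue and culture, with sums of 3827 RPKM in the RNA of embryonic hippocampus, 5298 in adult hippocampus, 5667 in adult cortex and 4014 to 5115 in the cultures. The sum of 7 oligodendrocyte-lineage markers was 47.1 RPKM in embryonic hippocampus, 2531 in adult hippocampus, 2711 in adult cortex and 46.0 to 98.6 in the cultures, and that of 7 markers of progenitors and dividing cells was 766 in embryonic hippocampus, 43.5 in adult hippocampus, 53.8 in adult cortex and 82.7 to 262 in the cultures. Fewer cells of a type and less RNA per cell cannot be told apart in such samples, and the part of cell makeup in the results below was not tested.

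Nrxn2 had the highest RNA level of the 9 genes in each of 12 RNA-seq libraries, but Nrxn3 led most RPF libraries. The RNA level of Nrxn2 was 73.5 RPKM in embryonic hippocampus, 121 in adult hippocampus and 109 in adult cortex, and ran from 67.6 to 139 in the 9 cultures. Nrxn3 had 12.2, 67.5 and 93.3 RPKM in the same tissues and 26.4 to 37.1 in the cultures. At the RNA level, adult tissue thus stood above every culture for Nrxn3 but not for Nrxn2. In RPFs, Nrxn2 had 44.4, 73.9 and 70.8 RPKM in the 3 tissues, 79.6 to 92.4 in the DIV10 cultures and 164 to 195 in the DIV14 cultures. Nrxn3 had 18.9, 104 and 119 RPKM in the tissues, 96.6 to 112 at DIV10 and 125 to 174 at DIV14. Nrxn3 was first of the 9 genes in 6 of 10 RPF libraries and Nrxn2 in 3. The lead of Nrxn3 over Nrxn2 was only 1.04-fold [1.002, 1.09] in the unstimulated DIV10 culture. In the GFP culture it was 1.05-fold [0.995, 1.11], an interval that holds 1. Of the summed level of both neurexins, Nrxn3 held 14.2% to 46.1% in RNA (median 26.0%) and 29.9% to 62.6% in RPFs (median 51.2%).

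The RPFs of the neuroligins kept one order in all 10 libraries, Nlgn3 above Nlgn2 above Nlgn1, which their RNA did not. Nlgn3 had 50.8, 60.3 and 76.8 RPKM of RPFs in embryonic hippocampus, adult hippocampus and adult cortex, 77.7 to 96.5 at DIV10 and 113 to 162 at DIV14. Nlgn2 had 37.7, 27.2 and 55.3 RPKM in the tissues, 36.9 to 48.5 at DIV10 and 66.3 to 75.6 at DIV14. Nlgn1 had 22.9, 12.2 and 36.9 RPKM in the tissues, 15.999 to 25.4 at DIV10 and 35.9 to 40.4 at DIV14. Nlgn3 thus held 45.4% to 60.5% of the summed neuroligin RPFs and Nlgn1 12.2% to 21.8%. In RNA, Nlgn2 led in both hippocampi (67.8 and 110 RPKM, against 44.2 and 59.5 for Nlgn3 and 19.96 and 29.8 for Nlgn1), and the 3 genes had 60.1 to 74.5 RPKM in adult cortex. In the DIV14 cultures Nlgn1 had 42.9 to 57.8 RPKM of RNA, Nlgn3 18.6 to 52.0 and Nlgn2 7.97 to 38.5, with as few as 15 reads for Nlgn2. Nlgn1 held 14.97% to 62.6% of neuroligin RNA.

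Of the LRRTMs, Lrrtm1 led the RPFs in each of the 10 libraries and Lrrtm3 was last of all 9 members in 8 of them. Lrrtm1 had 42.7, 87.1 and 51.6 RPKM of RPFs in embryonic hippocampus, adult hippocampus and adult cortex, 25.4 to 28.7 at DIV10 and 51.3 to 70.7 at DIV14. Lrrtm2 had 6.56, 26.5 and 44.5 RPKM in the tissues, 13.1 to 20.1 at DIV10 and 21.5 to 31.7 at DIV14. Both were thus lowest in different samples, Lrrtm1 at DIV10 and Lrrtm2 in the embryo. Lrrtm3 had 1.09, 22.3 and 32.8 RPKM in the tissues, 3.63 to 7.14 at DIV10 and 12.9 to 26.2 at DIV14. Lrrtm4 had 13.6, 37.0 and 43.2 RPKM in the tissues, 14.0 to 17.6 at DIV10 and 21.6 to 30.1 at DIV14. In RNA the LRRTMs had 31.2, 6.95, 5.74 and 7.49 RPKM in embryonic hippocampus, 80.9, 22.3, 13.5 and 19.6 in adult hippocampus and 49.7, 62.1, 47.9 and 29.4 in adult cortex, in the order Lrrtm1 to Lrrtm4. Lrrtm1 was the highest of them in both hippocampi and Lrrtm2 in cortex, where Lrrtm2 had 159 reads and Lrrtm1 129. The lead of Lrrtm2 was not seen in TAIL-seq tags of adult cortex, 67 for Lrrtm2 and 93 for Lrrtm1.

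**Figure D1:**
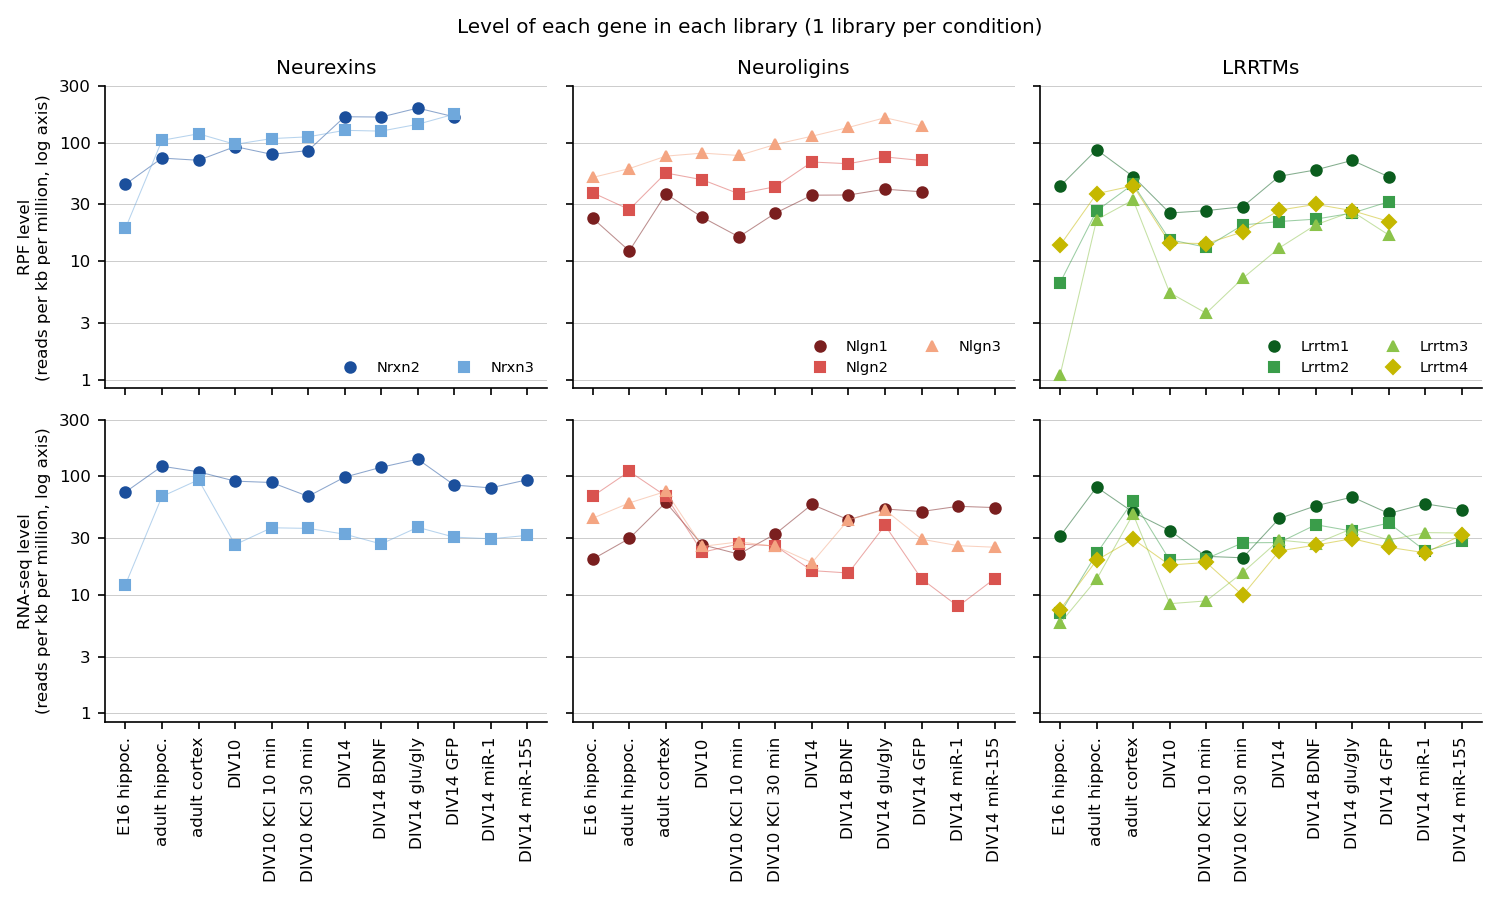
Levels of the 9 genes in each library, in RPKM on a log axis, with RPFs above and RNA-seq below and 1 column of panels per family. Each point is 1 library, thin lines only join the points of a gene, and the miR-1 and miR-155 cultures are drawn for RNA-seq only. The lowest point is Lrrtm3 in the RPFs of embryonic hippocampus (1.09 RPKM), and Nrxn2 leads every RNA-seq library.

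Adult hippocampus was set against embryonic hippocampus to ask which genes differ between developing and mature tissue. Nrxn3 and all 4 LRRTMs were past 2-fold higher in the adult, in RPFs and in RNA, whereas Nrxn2 and the neuroligins were not past 2-fold in either. In RPFs, 30.3% of 12819 genes were called higher and 33.5% lower, against 5 higher and 0 lower of the 9 members, whose median log2 ratio was 1.03 beside −0.31 for all genes. In RNA, 22.1% of 12884 genes were called higher, against 5 of 9 members, whose median was 1.23 beside −0.23, and 26.4% were called lower. With the authors’ RPM, Lrrtm1 in RPFs and Lrrtm3 in RNA were within 2-fold. Centred on the median ratio of all genes, Nrxn2 also passed 2-fold in RPFs. By tags of the tail libraries only 4 members could be compared. Of these, Nrxn3 and Nlgn2 were past 2-fold and Lrrtm1 was not. Nrxn3 was 5.52-fold higher in RPFs [5.26, 5.79] and 5.54-fold higher in RNA [5.003, 6.16]. Nrxn2 was 1.66-fold higher in RPFs [1.61, 1.72] and 1.65-fold in RNA [1.58, 1.73]. The RPF and RNA ratios of each neurexin thus lay within each other's intervals.

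Lrrtm3 had the largest ratio of the members, 20.5-fold in RPFs [15.1, 28.5], from 43 reads in the embryo and 821 in the adult, but only 2.35-fold in RNA [1.78, 3.13], from 75 and 167 reads. These intervals did not overlap. Lrrtm1 was 2.04-fold higher in RPFs and 2.60-fold in RNA, Lrrtm2 4.04-fold and 3.21-fold, and Lrrtm4 2.73-fold and 2.61-fold. Nlgn1 and Nlgn2 differed in sign between RPFs and RNA, with no ratio past 2-fold. Nlgn1 was 1.89-fold lower in adult RPFs [1.72, 2.07] but 1.49-fold higher in RNA [1.31, 1.71], and Nlgn2 1.38-fold lower in RPFs [1.29, 1.48] but 1.62-fold higher in RNA [1.51, 1.74]. Nlgn3 was 1.19-fold higher in RPFs and 1.35-fold in RNA. Progenitor markers summed to 893 RPKM of RPFs in embryonic and 115 in adult hippocampus, and oligodendrocyte-lineage markers to 31.5 and 4681.

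Translational efficiency (TE) is the log2 ratio of RPFs to RNA-seq reads of a sample, both in RPM, given here only where the RNA reached 10 RPM. Of the 6 members with a TE in both hippocampi, Nlgn1 was past 2-fold lower in the adult, at −0.23 against 0.99, a difference of −1.22 [−1.45, −0.99], where 7.66% of 5431 genes were called lower and 15.8% higher. Nlgn2 differed by −0.89 [−1.03, −0.75]. These differences lay at the 5.43rd and 9.36th percentiles of all genes compared. The other 4, Nrxn2, Nrxn3, Nlgn3 and Lrrtm1, differed by −0.07 to 0.29, beside a median of 0.22 over all genes. With a cutoff of 30 RPM only 3 members were left and none was called, and Nlgn1 was not among the 3. Centred on the median difference of all genes, Nlgn2 was called along with Nlgn1. No member had the 50 tags needed to compare tails between the hippocampi, where 50.3% of 169 genes were 10 nt or more shorter in the adult.

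Adult cortex was next set against adult hippocampus. Nlgn1 and Nlgn2 were past 2-fold higher in cortical RPFs, by 3.03-fold [2.72, 3.38] and 2.03-fold [1.88, 2.20], where 19.8% of 12511 genes were called higher and 12.1% lower, and the other 7 members were within 2-fold. Centred on the median of all genes, or with the authors' RPM, Nlgn2 fell short of 2-fold. Lrrtm1 was the only LRRTM lower in cortex, 1.69-fold in RPFs [1.54, 1.85] and 1.63-fold in RNA [1.35, 1.97], neither past 2-fold. In RNA, Nlgn1 (2.02-fold), Lrrtm2 (2.79-fold) and Lrrtm3 (3.55-fold) were called higher, where 9.79% of 12099 genes were and 9.3% were called lower, and Nlgn2 was 1.62-fold lower [1.43, 1.84]. With the authors' RPM, which divide by a larger total, 3 members were called again, but Nlgn1 and Lrrtm2 fell within 2-fold while Nlgn2 and Lrrtm1 passed it as lower. Of 8 members with TE in both, Nlgn2 was higher in cortex by 2.25 [2.03, 2.46], above 98.3% of genes compared, and Nlgn1 by 1.12 [0.85, 1.38], where 22.1% of 4813 genes were called higher and the median difference was 0.51. Centred on that median, Nlgn2 alone was called.

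**Figure D2:**
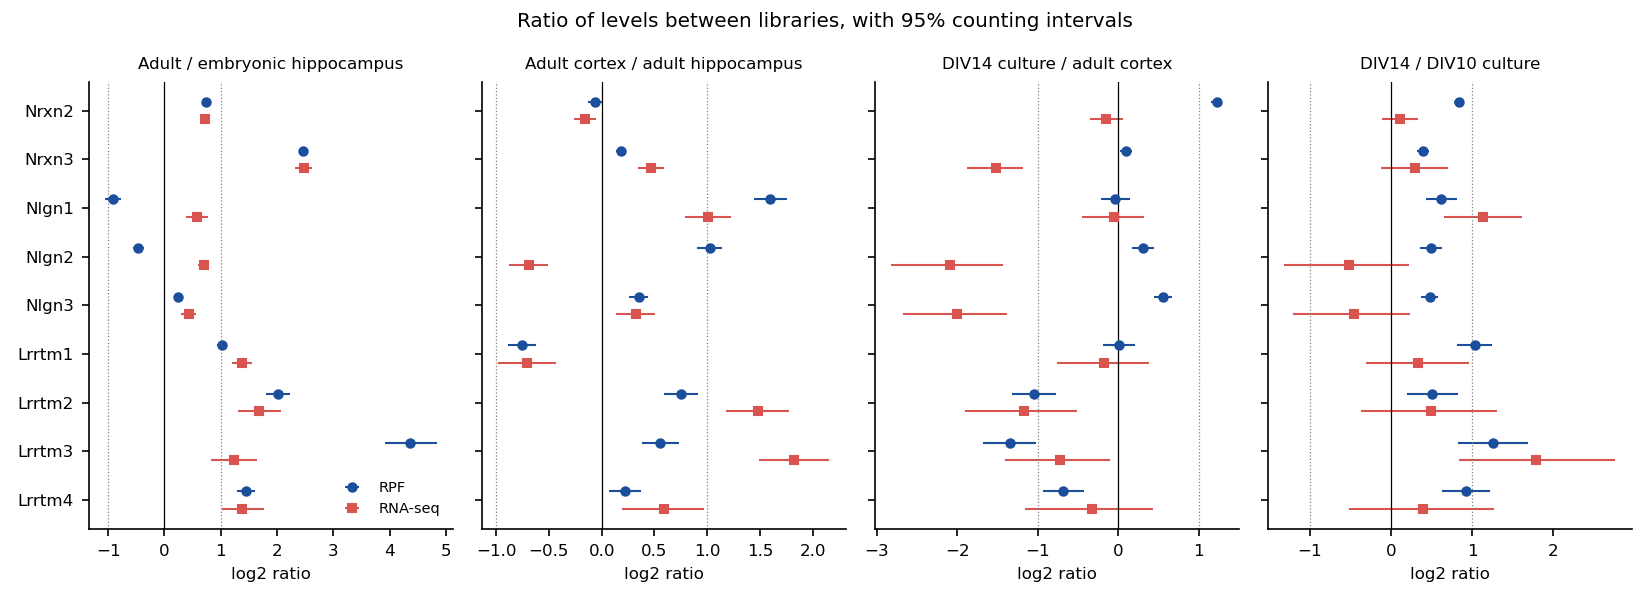
Ratios of levels between 2 libraries for each gene on a log2 scale, circles for RPFs and squares for RNA-seq, with bars for 95% counting intervals and dotted lines at 2-fold. The panels have scales of their own. Lrrtm3 reaches 4.35 in RPFs of adult against embryonic hippocampus, and Nlgn1 and Nlgn2 lie on opposite sides of 0 in RPFs and RNA in that panel.

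The unstimulated DIV14 culture was set against adult cortex to compare a culture enriched for neurons with the intact tissue. In RPFs Nrxn2 was 2.33-fold higher in culture [2.22, 2.45], where 11.6% of 12416 genes were called higher, and Lrrtm2 was 2.07-fold lower [1.71, 2.51] and Lrrtm3 2.54-fold lower [2.03, 3.21], where 11.8% were called lower. Nrxn3, Nlgn1 and Lrrtm1 were within 1.07-fold of the cortex. In RNA-seq all 9 members were lower in culture (median log2 ratio −0.73, beside 0.23 for all genes) and 4 were called, where 15.2% of 9915 genes were called lower and 18.4% higher. These were Nlgn2, 4.26-fold [2.70, 7.07] from 20 reads in culture, Nlgn3, 4.00-fold [2.62, 6.40] from 23, Nrxn3, 2.88-fold [2.27, 3.69], and Lrrtm2, 2.25-fold [1.43, 3.74]. The same samples were also measured by TAIL-seq, whose tags count mRNA 3′ ends. By tags, Nlgn2 was 1.11-fold lower [0.89, 1.39], Nlgn3 1.13-fold [0.74, 1.72] and Nrxn3 1.83-fold [1.46, 2.29], and only Lrrtm2 (2.71-fold) and Lrrtm4 (2.78-fold, from 10 tags) were past 2-fold. The low RNA-seq levels of Nlgn2 and Nlgn3 in culture were thus not seen in the tags of the same culture. Sums of oligodendrocyte-lineage markers differed between cortex and cultures as given above. Astrocyte markers summed to 2651 RPKM of RNA in cortex and 1639 in this culture.

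Between DIV10 and DIV14, all 9 members were higher in RPFs at DIV14, with a median log2 ratio of 0.62 beside −0.09 for all genes. Lrrtm1 (2.04-fold [1.76, 2.37]) and Lrrtm3 (2.39-fold [1.77, 3.23]) were called, where 4.23% of 12555 genes were called higher and 8.79% lower. Lrrtm4 was 1.89-fold, Nrxn2 1.79-fold and Nlgn1 1.54-fold higher, and Nrxn3, Nlgn2, Nlgn3 and Lrrtm2 were 1.31- to 1.42-fold higher. In RNA-seq Nlgn1 (2.19-fold [1.57, 3.05]) and Lrrtm3 (3.44-fold [1.79, 6.79], 17 and 25 reads) were called, where 2.61% of 9750 genes were. By tags it was Lrrtm1 (2.14-fold [1.56, 2.97]) and Lrrtm3 (2.90-fold [1.501, 6.14]), so that Lrrtm3 alone passed 2-fold by each of the 3 measures. No TE of the 4 members compared was called, where 1.18% of 4500 genes were called higher, and Nrxn2 came nearest with a difference of 0.79 [0.57, 1.02]. The methods speak of 6 cultures prepared in 2 batches of 3, each from 2 litters, without naming them. Age and preparation therefore cannot be told apart here, and neither can a treatment and preparation wherever the cultures compared came from different batches.

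The TE of Nrxn3 and Nlgn3 stood near the top of all genes in each culture where it could be ranked. The TE of Nrxn3 lay between the 97.0th and 99.3rd percentiles of the genes of its sample in the 7 cultures with RPFs, and between the 74.7th and 82.9th in the 3 tissues. Nlgn3 lay between the 96.4th and 98.8th percentiles in the 5 cultures where its RNA passed the cutoff, and between the 58.4th and 64.6th in the tissues. How many of all genes separated cultures from tissues in this way was not counted. Nlgn2 lay between the 82.8th and 94.4th percentiles in 3 cultures and the 7.9th and 49.4th in the tissues, and Nrxn2 between the 62.9th and 91.6th in 7 cultures and the 28.4th and 36.3rd in the tissues. RNA of both hippocampi was poly(A)-selected, so RNA selection and tissue cannot be told apart in their TE. Adult cortex, depleted of ribosomal RNA, lay at the 74.7th percentile for Nrxn3, the 63.3rd for Nlgn3, the 49.4th for Nlgn2 and the 36.3rd for Nrxn2. Nlgn1 ran from the 42.2nd to the 61.6th in cultures and the 17.2nd to the 64.7th in tissues. Lrrtm1 ran from the 47.4th to the 78.6th in 5 cultures, and Lrrtm2, Lrrtm3 and Lrrtm4 passed the cutoff in only 5, 4 and 3 of 10 samples.

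Because RNA-seq and tags disagreed for some members, TE was also computed from tags, an alternative chosen after seeing the data, in adult cortex and the 7 cultures. RPFs of a gene rise with the length of its coding sequence and tags do not, and length was not corrected for. Percentiles by tags therefore also carry coding length, which cancels by RNA-seq. The coding sequence was longer than 95.5% of those annotated for Nrxn3, 96.3% for Nrxn2, 80.7% for Nlgn3, 81.2% for Nlgn2 and 59.4% for Lrrtm1. Nrxn3 then lay between the 90.5th and 97.9th percentiles and Nlgn3 between the 94.9th and 98.9th, cortex included. For Nlgn3, adult cortex was at the 95.8th percentile and so within the range of the cultures, and the gap between cultures and tissue by RNA-seq was not seen by tags. Nlgn2 lay between the 41.1st and 69.7th, with a median at the 51.1st over 8 samples, where RNA-seq gave the 87.8th over the 4 that passed its cutoff. Lrrtm1 had its median at the 32.6th percentile by tags and the 73.0th by RNA-seq. Nrxn3 and Nlgn3 thus ranked high in culture by both measures, and Nlgn2 by RNA-seq only. The part of coding length in the tag percentiles was not tested. Against adult cortex, DIV14 TE was higher for Nrxn2 by 1.43 [1.21, 1.64] and for Nrxn3 by 1.68 [1.33, 2.02], out of 5 members compared, where 12.4% of 4086 genes were called higher and 6.02% lower, and by tags only the difference of Nrxn2 was past 2-fold.

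Tails of Nrxn2 and Nlgn2 were the longest of the members in all 9 cultures and in adult cortex, among genes with at least 50 tags. The mean tail of Nrxn2 was 118 nt in adult cortex and ran from 124 to 141 nt in the cultures (median 130), where it was longer than those of 93.3% to 98.9% of genes. Nlgn2 had 113 nt in cortex and 109 to 132 nt in the cultures (median 124), at the 72.5th to 98.1st percentiles. The median gene had 99.5 nt in cortex and 100 to 112 nt in the cultures. Nrxn3 had 93.6 nt in cortex and 97.5 to 118 nt in the cultures, from the 30.6th to the 72.6th percentile, and thus shorter tails than Nrxn2 in every sample. Lrrtm1 had 88.1 nt in cortex and 86.7 to 113 nt in 7 cultures, with a median at the 31.0th percentile. Nlgn1 had 103 to 109 nt in 5 cultures, Nlgn3 107 to 110 nt in 3 and Lrrtm3 98.3 to 111 nt in 3, while Lrrtm2 and Lrrtm4 had fewer than 50 tags in each culture.

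All 6 members compared had longer tails at DIV14 than in adult cortex, by 13.9 nt (Lrrtm3) to 25.4 nt (Lrrtm1), and a difference of 10 nt or more was found in 62.4% of 2663 genes (0.601% were 10 nt or more shorter), whose median was 12.4 nt longer. Centred on that median, 3 of 6 were past 10 nt. From DIV10 to DIV14, Nrxn2 was 10.9 nt and Nrxn3 14.3 nt longer, of 4 members compared, where 32.6% of 2820 genes were 10 nt or more longer and the median was 6.93 nt longer. Each tail length comes from 1 sample, and the spread between cultures of a kind is unknown.

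**Figure D3:**
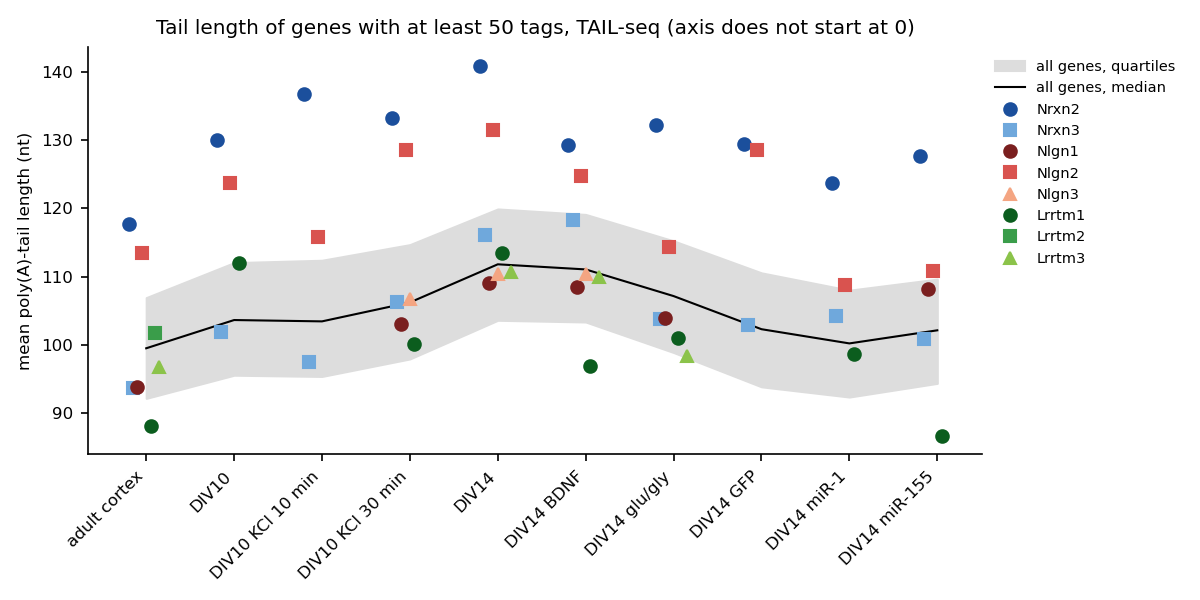
Mean poly(A)-tail length in nt by TAIL-seq for each gene with at least 50 tags, in adult cortex and the 9 cultures. The line is the median of all genes with as many tags and the band their quartiles. Nrxn2 lies above the band in all 10 samples.

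BDNF and glu/gly were added to ask how the cultures respond within 30 min. Both comparisons share the unstimulated DIV14 culture. With BDNF no member was past 2-fold in RPFs, where 0.673% of 11595 genes were called higher and 2.64% lower, and all 9 lay between 1.03-fold lower and 1.57-fold higher. With glu/gly, Lrrtm3 was 2.03-fold higher in RPFs [1.54, 2.68], from 95 and 125 reads, where 0.567% of 11454 genes were called higher, and the other 8 lay between 1.01-fold lower and 1.43-fold higher (Nlgn3). By the authors' RPM Lrrtm3 was within 2-fold. The RPF level of Lrrtm3 was 12.9 RPKM unstimulated, 20.2 with BDNF and 26.2 with glu/gly.

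In RNA-seq, Nlgn3 was 2.31-fold higher with BDNF [1.38, 3.96], where 1.08% of 7868 genes were called higher, and 2.79-fold with glu/gly [1.73, 4.67], and Nlgn2 was 2.41-fold higher with glu/gly [1.43, 4.24], where 2.4% of 8175 genes were and 1.94% were called lower. These ratios rest on 23 reads of Nlgn3 and 20 of Nlgn2 in the shared control. By tags, of which the control held 60 and 211, Nlgn3 was 1.10-fold higher with BDNF [0.77, 1.59] and 1.07-fold with glu/gly [0.71, 1.58], and Nlgn2 was 1.22-fold higher with glu/gly [1.00, 1.49]. None of the 5 members compared in TE was called with either, where 0.0638% of 4705 genes were called higher and 0.723% lower with BDNF and 0.0634% of 4731 higher and 4.08% lower with glu/gly.

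Tails of several members were shorter after the stimuli. With BDNF, Lrrtm1 differed by −16.6 nt (96.9 against 113 nt) and Nrxn2 by −11.6 nt (129 against 141 nt), 2 of 7 members, where 9.03% of 4098 genes were 10 nt or more shorter and 6.27% longer. The other 5 differed by −6.77 to 2.15 nt. With glu/gly all 6 members compared were shorter and 4 by 10 nt or more, where 20.2% of 3516 genes were and the median difference was −4.68 nt. Nlgn2 differed by −17.2 nt, Lrrtm1 by −12.6 nt, and Nrxn3 and Lrrtm3 by −12.3 nt each. Centred on the median, Nlgn2 alone was past 10 nt.

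KCl depolarizes neurons, and both KCl cultures share the unstimulated DIV10 culture. After 10 min no member was past 2-fold in RPFs (1.18% of 12661 genes were called higher and 5.72% lower) or RNA-seq (0.71% and 1.41% of 9864). Nlgn1 was 1.46-fold lower in RPFs [1.25, 1.72] and Nrxn3 1.12-fold higher [1.07, 1.17]. TE was lower in all 5 members compared, by −0.53 (Nrxn2) to −0.97 (Nlgn2), with none called, where the median difference was −0.41 and 14.9% of 4734 genes were called lower. After 30 min no member was past 2-fold in RPFs (1.34% of 12490 called higher, 5.11% lower) or RNA-seq (2.26% and 6.16% of 10106), and the 3 members with a TE were all above 0, by 0.20 to 0.76, with none called (8.26% of 3535 genes were called higher and 1.78% lower), beside a median of 0.32. The tail of Lrrtm1 differed by −11.8 nt after 30 min (100 against 112 nt), 1 of 4 members, where 4.23% of 2815 genes were 10 nt or more shorter. After 10 min the tails of the 3 members compared differed by −7.93 to 6.78 nt, with none called (7.79% of 2543 genes were longer and 7.59% shorter).

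The GFP culture was set against the unstimulated DIV14 culture, and the miRNA cultures against GFP, which both therefore share. With GFP no member was past 2-fold in RPFs (0.933% of 11474 genes called higher, 3.92% lower) or RNA-seq (1.26% and 2.41% of 7750), and Nrxn3 was 1.37-fold higher in RPFs [1.29, 1.45]. Tails of Nrxn2 and Nrxn3 differed by −11.5 and −13.2 nt, 2 of 3 members compared, where 40.4% of 1856 genes were 10 nt or more shorter and the median difference was −8.45 nt. Whether the GFP and unstimulated cultures were prepared together is not stated.

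With miR-155, Nlgn1 did not differ detectably from GFP in RNA-seq, in spite of the 2 8mer sites shown above. Its log2 ratio was 0.11 [−0.31, 0.55], from 56 reads with GFP and 285 with miR-155, and by tags it was 1.28-fold higher [0.81, 2.04]. The 330 genes with an 8mer had a median of −0.26, and 76.1% of them lay below Nlgn1, beside medians of −0.18 for 630 genes whose best site was a 7mer-m8 and 0.04 for 7718 genes with no site. Lrrtm2, with its 7mer-m8 site, had a ratio of −0.50 [−1.13, 0.18]. Whether the cultures use the whole annotated UTR of Nlgn1 was not tested. No member was called in RNA-seq with miR-155 (1.35% of 9944 genes called higher, 1.93% lower) or with miR-1 (1.56% and 2.87% of 8500). The tail of Nlgn2 was 129 nt with GFP, from 63 tags, 111 nt with miR-155 and 109 nt with miR-1. It thus differed by −17.8 and −19.9 nt, 1 of 3 members compared each time, where 8.47% of 1783 genes and 14.9% of 1748 were 10 nt or more shorter, and both differences rest on the same GFP value.

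The visual cortex was the only tissue with replicates, 4 mice in the dark and 4 after 1 h of light, and no member passed the test there. With edgeR's quasi-likelihood test and Benjamini-Hochberg adjustment over 9554 genes, 1.21% of genes were called higher and 0.126% lower after light, and 0 of the 9 members were called at an adjusted p of 0.05 (1 of 9 had an unadjusted p under 0.05, and DESeq2 also called 0). Tags count 3′ ends of mRNAs, are given as CPM, which divides them by the total of each mouse, and were not divided by length. Nrxn2 led in all 8 mice with 484, 503, 612 and 570 CPM in the dark and 451, 465, 508 and 540 after light. Its groups overlapped, and the log2 difference was −0.11 ± 0.094 (SE). Nrxn3 was second in all 8 mice, with 240 ± 23.2 CPM in the dark and 251 ± 31.9 after light (SD, n = 4 each).

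Lrrtm4 had the largest difference and the fewest tags. It had 17.8, 15.6, 18.7 and 21.7 CPM in the dark and 21.1, 38.9, 29.1 and 22.6 after light, from 24 to 75 tags a mouse. The lowest lit mouse lay below the highest dark mouse, so the groups overlapped. The log2 difference was 0.67 ± 0.23 (SE), with an adjusted p of 0.242 by edgeR, and over 12 alternatives the adjusted p ran from 0.148 to 0.654. The other 8 members differed by −0.11 to 0.084 on the log2 scale, with the groups of each overlapping. Non-overlapping groups occurred in 5.76% of all genes tested.

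In the same mice, Nlgn2 had the longest tails of the tested members, 113, 108, 90.7 and 96.9 nt in the dark and 99.1, 114, 116 and 98.2 nt after light, and its mean was above 97.4% of genes. Nrxn2 had 91.1 ± 8.89 nt in the dark and 94.4 ± 9.53 nt after light (SD, n = 4 each), at the 74.6th percentile, and Nrxn3 78.8 ± 10.6 and 83.9 ± 5.26 nt, at the 22.9th. The order Nlgn2 and Nrxn2 above Nrxn3 was thus as in adult cortex and the cultures, although Nlgn2 led here and Nrxn2 there. Nlgn3 lay close to Nrxn2 here, with 88.2 ± 9.32 nt in the dark and 96.7 ± 7.76 nt after light, at the 73.8th percentile. Of 8 members with at least 50 tags in each mouse, 0 were called by limma (0 with an unadjusted p under 0.05), where 0.231% of 4321 genes were called longer and 0 shorter. All 8 were longer after light, by 1.97 nt (Lrrtm1) to 9.81 nt (Nlgn1), each with an SE of 6.68 nt, and so were 3641 of 4321 genes tested. Leaving out 1 mouse moved the difference of Nlgn1 to between 2.30 nt (without dark mouse 4) and 17.7 nt (without dark mouse 1) and turned those of Nrxn2 and Lrrtm1 below 0 (to −0.34 and −1.43 nt). The members' median was 5.43 nt and that of all genes 3.75 nt. Tails of every member overlapped between the groups, and in the dark those of Nlgn1 ran from 54.8 to 101 nt. In 0.625% of genes tested they did not overlap.

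To place the members in their pathway, 59 other genes of trans-synaptic adhesion and its partners were listed, among them cerebellins and C1q-like proteins (secreted neurexin or adhesion-GPCR ligands), latrophilins, Slitrks, LAR-type receptor phosphatases and the scaffolds that bind neurexin or neuroligin tails. In RPFs of adult against embryonic hippocampus, 25 of 58 genes compared were called higher and 10 lower, beside 30.3% and 33.5% of all genes. C1ql3 had 0 RPFs in the embryo and 2299 in the adult, and in RNA-seq it had 9 and 728 reads. C1ql2 had 4 and 635 RNA-seq reads. The RNA ratios of C1ql2 (168-fold) and C1ql3 (85.4-fold) were thus larger than that of any of the 9 members. Against adult cortex, DIV14 culture had 22 of 53 listed genes called lower in RNA-seq and 3 higher, beside 15.2% and 18.4% of all genes. Their median was −0.85, beside −0.73 for the members. TE was called higher in 14 of 35 and lower in 0, beside 12.4% and 6.02% of all genes. The largest TE differences were those of the postsynaptic scaffold Shank2 (2.22), the calsyntenin Clstn2 (1.89), the latrophilin Adgrl1 (1.86) and the scaffold Shank3 (1.78). With glu/gly, against the same unstimulated culture, TE differed by −1.65 for Shank2, −1.63 for Clstn2 and −1.84 for Shank3. The TE of these genes in that shared culture rests on 25, 28 and 38 RNA-seq reads, in the same order. In RNA-seq with glu/gly they were called 2.44-, 2.72- and 2.40-fold higher. With glu/gly, 0 of 54 listed genes were called higher in RPFs and 1 lower, beside 0.567% and 2.15% of all genes. In RNA-seq 7 of 48 were called higher, beside 2.4% of all genes. Tails were 10 nt or more shorter in 13 of 31, as in 4 of 6 members and 20.2% of all genes. After light, 0 of 49 were called in tags (1.21% of all genes higher, 0.126% lower) and 0 of 34 in tail length (0.231% of all genes longer).

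Over the 10 RPF libraries, the genes whose levels went most with each member were found by Pearson's r of log2(RPKM + 1) among 10775 genes, as a description with no test, since libraries share culture, age and experiment. Nrxn2 went with Wdr13 (0.99), Mapk3 and Rps6ka2, and Nrxn3 with Wfs1 (0.99), Pdxk and Gad1, which makes the transmitter GABA. Nlgn1 went with Adcy5 (0.96), Fnip1 and Nlgn2 (0.95), Nlgn2 with Adcy5 (0.99), Fbxw5 and Lrrc8b, and Nlgn3 with the latrophilin Adgrl3 (0.97), Csmd2 and Abca3. Lrrtm1 went with Mafg (0.95), Slit3 and Atp2c1, Lrrtm2 with St8sia5 (0.99), Rapgef5 and Dnajc6, Lrrtm3 with Pcnx2 (0.99), Arhgap26 and Ptprn2, and Lrrtm4 with Plekha6 (0.98), Extl1 and Mpp2. Among the members themselves, the highest values were 0.96 for Nrxn2 with Nlgn3, 0.95 for Nlgn1 with Nlgn2 and 0.94 for Lrrtm2 with Lrrtm3, whereas Lrrtm1 went with Lrrtm4 (0.79) more than with any neurexin or neuroligin (0.17 to 0.33).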

How the data were processed

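RNA-seq and RPF files hold, per RefSeq gene, a read count and an RPM value. The authors counted reads on the open reading frame without its first 50 nt, and the deposited RPM divide these counts by a total larger than the reads on listed genes. STAR 2.4.2 and bedtools are named in the submitters' processing notes. Tail files hold the deposited tag count and tail length per gene, by TAIL-seq or, in hippocampi and visual cortex, PAL-seq. A combined table holds the log2 TE that the authors computed, used only as an alternative, and 66 columns of per-sample values in the combined tables were not used.

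Here levels were scaled by reads on genes, TE was taken from RPM at 10 RPM or more, and tails needed 50 tags. A level or TE was called when it reached 2-fold with the 95% counting interval of the ratio clear of 1. Levels also needed at least 20 reads over both libraries, and tails were called at 10 nt. Intervals were exact (Clopper-Pearson, conditional on the sum) for levels and from the normal approximation for TE. The visual cortex was tested with light as the only term, in edgeR 4.0.16 (TMM, filterByExpr) and limma 3.58.1 (R 4.3.3), adjusted over all genes at 0.05. Limma's prior degrees of freedom were infinite, so every gene received one SE. Both fits were checked on simulated data, in which tails varied less and shifted more than those of the members here. The check therefore does not show which tail changes could be found in these mice. Levels were compared under other scalings, minimums and, chosen after seeing the data, tag-based TE. DESeq2 1.42.0 was an alternative. Members, the list of 59 genes and the markers were chosen with earlier results of these data known. Named genes were all members, the listed genes with the largest called ratios (at most 4 a comparison) and the 3 most similar per member. Sequences and positions came from RefSeq on GRCm38.p6, where all 9 members matched.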

Additional observations from a re-analysis of the deposited data

Results flagged for a closer look

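In the visual cortex, 36 groups of 4 mice were examined (tags and tails of the 9 members at 0 and 1 h) for a mouse far from the other 3, and 0 were found, where chance alone gives about 1 in 20.

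For 2 further RPF libraries of transduced DIV14 cultures, the short code and the words of the title name different miRNAs, so they were put in no group. Signal of every member was present in both. The library of 817114 reads held 707 RPFs of Nrxn2, 470 of Nrxn3, 84 of Nlgn1, 155 of Nlgn2, 238 of Nlgn3, 71 of Lrrtm1, 15 of Lrrtm2, 30 of Lrrtm3 and 30 of Lrrtm4. The library of 6428048 reads held 6114 RPFs of Nrxn2, 3899 of Nrxn3, 647 of Nlgn1, 1056 of Nlgn2, 2061 of Nlgn3, 610 of Lrrtm1, 235 of Lrrtm2, 164 of Lrrtm3 and 302 of Lrrtm4. In RPKM, Nrxn2 led in both (171 and 188), and Nlgn3 (120 and 132) stood above Nlgn2 (77.1 and 66.8) and Nlgn1 (41.4 and 40.6).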

How the results depend on the processing

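Of the counts of members called, 108 stayed within 1.5 times of their value under the alternatives and 32 moved. The 108 include counts that were 0 both times, so they are no measure of how stable the calls were. They also include counts kept with other genes. In RNA-seq of cortex against hippocampus, 3 were called with the authors' RPM as before, but Nlgn2 and Lrrtm1 replaced Nlgn1 and Lrrtm2. The cause of the moves was not tested except where fewer genes could be compared. With the authors' RPM, RPF calls went from 2 to 1 (cortex against hippocampus), 2 to 4 (DIV14 against DIV10) and 1 to 0 (glu/gly), and RNA-seq calls from 0 to 2 (KCl 30 min). Centring on all genes moved RPF calls from 2 to 1 and TE calls from 2 to 1 (cortex against hippocampus), TE calls from 1 to 2 (adult against embryonic hippocampus) and tail calls from 6 to 3 (DIV14 against cortex), 2 to 0 (DIV14 against DIV10), 4 to 1 (glu/gly) and 2 to 0 (GFP). With 100 reads, RNA-seq calls went from 2 to 1 (DIV14 against DIV10), 1 to 0 (BDNF) and 2 to 0 (glu/gly). With tags as the level they went from 5 to 2 of 4 compared (hippocampi), 4 to 2 (DIV14 against cortex), 1 to 0 (BDNF) and 2 to 0 (glu/gly), and TE calls from 2 to 1 (DIV14 against cortex). With 30 RPM, TE calls went from 1 to 0 (hippocampi) and 2 to 1 (cortex against hippocampus). With 100 tags, tail calls went from 6 to 3 (DIV14 against cortex), 2 to 1 (DIV14 against DIV10), 1 to 0 (KCl 30 min), 2 to 1 (GFP) and 1 to 0 for each miRNA. With 20 tags they went from 0 to 2 (KCl 10 min), 1 to 2 (KCl 30 min), 2 to 5 (GFP) and 1 to 3 for each miRNA.

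After light, leaving out each mouse gave 0 members called in tags and tails. Differences changed sign in tags for Nrxn3 (−0.00083 to 0.15), Nlgn2 (−0.077 to 0.026), Nlgn3 (−0.084 to 0.12), Lrrtm2 (−0.15 to 0.063) and Lrrtm3 (−0.0090 to 0.070), and in nt of tail for Nrxn2 (−0.34 to 6.57) and Lrrtm1 (−1.43 to 5.39). Mouse numbers did not pair the mice (correlations of deviations of −0.20 to 0.031 in tags and −0.11 to 0.041 in tails). With the number as a replicate block, 0 members were called in tags and 0 in tails, and 113 of all genes in place of 128 for tags and 1 in place of 10 for tails. All-gene tail calls were 1 on a log2 scale and 1 to 21 without each mouse. One dark mouse had 4812273 tags and the others at most 1753545, and members had as few as 8 reads in the RNA-seq of the cultures and 3 tags in their TAIL-seq.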

Other observations

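Tails of the hippocampi were measured by PAL-seq at low depth, and no member reached 50 tags there, so they entered no comparison. In adult hippocampus Nrxn3 and Lrrtm1 had 44 tags each, with tails of 42.0 and 42.5 nt, Nlgn2 had 55.5 nt from 30 tags and Nrxn2 77.5 nt from 16, where the median of 951 genes with 50 tags was 54 nt. These lengths were taken as medians, because all are multiples of 0.5 and no header says what they are. In embryonic hippocampus the members had 0 (Lrrtm3) to 13 (Lrrtm1) tags.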
